A study of Oryza sativa and Oryza rufipogon with 8 samples.

Results

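*NAAT1* (OS02G0306401) and *DMAS* (OS03G0237100) encode the enzymes of the last steps of phytosiderophore synthesis in rice roots. They are described here with the loci that carry the next locus number in the annotation of *O. sativa*, OS02G0306550 beside *NAAT1* and OS03G0237201 beside *DMAS*, and with the *NAAT1* (ORUFI02G13810) and *DMAS* (ORUFI03G09980) orthologs of *O. rufipogon*. They make up 4 of the 35679 genes in the *O. sativa* tables and 2 of the 37071 in the *O. rufipogon* tables. The members were chosen by their role and by their estimated counts and TPM under −Fe and CC in these same libraries, so their −Fe against CC values are given as a description without a test. The question asked of the neighbouring loci was whether they share reads with *NAAT1* and *DMAS*.

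Grasses take up Fe by secreting mugineic acids, small chelators that bind Fe(III) in the soil. S-adenosylmethionine is joined by nicotianamine synthase (NAS) into nicotianamine, nicotianamine aminotransferase (NAAT) turns this into a keto intermediate, and deoxymugineic acid synthase (DMAS) reduces the intermediate to deoxymugineic acid. The chelator leaves the root through the efflux transporter TOM1, and its complex with Fe(III) enters through YSL15.

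RNAseq libraries were made from the roots of Nipponbare, a cultivar of *O. sativa*, and of 1 accession of the wild rice *O. rufipogon*, both with the third leaf developed. Plants had grown in nutrient solution and were then kept for 5 days without added Fe (−Fe) or with 100 µM Fe-EDTA (control condition, CC). Each species contributed 2 −Fe and 2 CC libraries, 8 in all, and each library was a pool of 3 root samples, so that n = 2 for every mean and the spread is that between pools. The totals of the estimated counts were 24123205 and 25312301 in *O. sativa* −Fe, 22911261 and 23019020 in *O. sativa* CC, 17145733 and 18857150 in *O. rufipogon* −Fe, and 14758304 and 17256880 in *O. rufipogon* CC. A level of 3 counts was 0.119 to 0.203 CPM (counts scaled to the total of the library) at this depth, a limit that covers counting error only. The root silicon transporter genes *Lsi1* and *Lsi2* were at 517 to 1806 TPM and 316 to 935 TPM in the *O. sativa* libraries, against 2.54 to 16.4 TPM for a small subunit gene of the leaf enzyme Rubisco.

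*NAAT1* was among the most abundant transcripts of *O. sativa* roots without Fe. It had 42002 and 47321 estimated counts in the −Fe libraries, against 4125 and 4310 in the CC libraries. In TPM, which corrects for transcript length, the levels were 1436 and 1525 under −Fe and 147 and 153 under CC. The gene stood at rank 39 in both −Fe libraries, against ranks 1285 and 1255 in the CC libraries. The −Fe and CC libraries were far apart and those of each treatment differed little. After normalisation of the library sizes by TMM (trimmed mean of M values) the mean was 1826 ± 138 CPM under −Fe and 182 ± 6.97 CPM under CC (SD, n = 2 each), a log2 fold change of 3.33 with a standard error of 0.11, or 10.0-fold.

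*DMAS* was less abundant than *NAAT1* and moved by a similar factor. Its estimated counts in *O. sativa* were 10386.8 and 13610.5 under −Fe, against 1430.28 and 990.795 under CC. The TPM levels were 412 and 509 under −Fe and 59.1 and 40.7 under CC, and the treatments did not overlap. In *O. sativa* the pools of a treatment differed more for *DMAS* than for *NAAT1*. The coefficient of variation of TPM was 14.9% under −Fe and 26.0% under CC for *DMAS*, against 4.26% and 2.73% for *NAAT1*. In *O. rufipogon* it was 9.90% under −Fe and 11.2% under CC for *DMAS*, against 2.39% and 29.9% for *NAAT1*. The normalised mean of *DMAS* in *O. sativa* was 490 ± 89.1 CPM under −Fe and 52.1 ± 13.0 CPM under CC (SD, n = 2 each). Its log2 fold change there was 3.23 with a standard error of 0.24, or 9.41-fold.

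The neighbours of the 2 genes were at low levels and did not behave alike. OS02G0306550, beside *NAAT1*, had 533.017 and 473.39 estimated counts under −Fe, against 341.327 and 346.077 under CC. Its normalised mean was 20.6 ± 1.91 CPM under −Fe and 14.8 ± 0.261 CPM under CC (SD, n = 2 each), 1.39-fold higher under −Fe, with a log2 fold change of 0.48 and a standard error of 0.12. The libraries of the treatments did not overlap, but the difference was small beside that of *NAAT1*. OS03G0237201, beside *DMAS*, had 111.2 and 128.497 estimated counts under −Fe, against 9.71514 and 11.2048 under CC. Its mean was 4.89 ± 0.450 CPM under −Fe and 0.453 ± 0.0338 CPM under CC (SD, n = 2 each), a log2 fold change of 3.42 with a standard error of 0.30, or 10.7-fold. The fold change of this locus was thus within 1 standard error of that of *DMAS*.

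**Figure D1:**
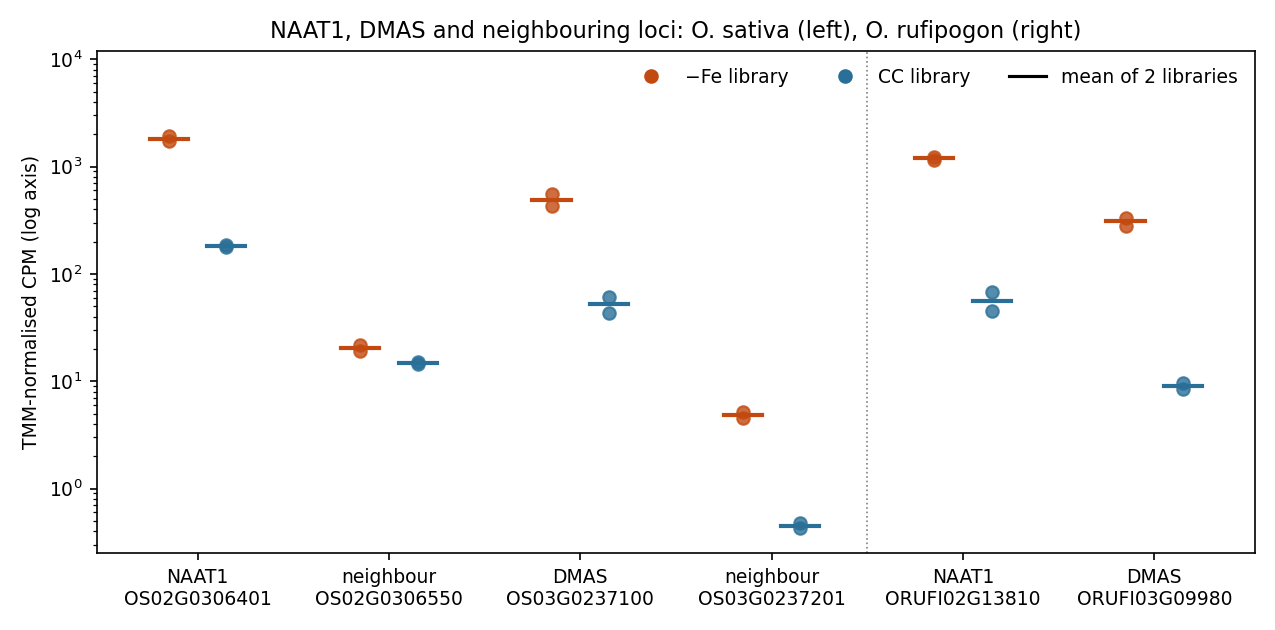
TMM-normalised CPM (log axis) of *NAAT1*, *DMAS* and their neighbouring loci in each library, for 4 *O. sativa* loci (left of the dotted line) and 2 *O. rufipogon* genes (right). Points are libraries, bars are the means of 2 libraries, and −Fe stands left of CC. *NAAT1*, *DMAS* and the neighbour of *DMAS* are separated by a factor of 9.41 to 10.7 in *O. sativa*, and the neighbour of *NAAT1* by 1.39.

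Whether a neighbour has reads of its own could be read in part from the estimated counts. Kallisto gives a whole number to a transcript whose reads match no other transcript, and a fraction where it divides reads among transcripts that match equally well. Each of the 6 genes has 1 transcript in the tables, so a fraction here means reads divided with another gene. In *O. sativa* 37.1% of genes had an estimate that was not whole in at least 1 library.

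*NAAT1* was whole in 4 of 4 *O. sativa* libraries, to the 6 significant digits of the tables. OS02G0306550 was whole in 0 of 4, with distances of 0.017 and 0.39 counts from the nearest whole number under −Fe and of 0.327 and 0.077 counts under CC. Reads of OS02G0306550 were therefore divided with some gene, but no division between it and *NAAT1* appeared. Among the 7681 other genes whose estimates were not whole in any *O. sativa* library, none completed OS02G0306550 to a whole number in all 4 libraries. The genes with which it divides reads were thus not found. The search tried a single partner at a time, so it could not see reads divided among several genes. Nor could it see a partner that was whole in some library. OS02G0306550 made up 1.25% and 0.990% of the summed estimate of the pair under −Fe, against 7.64% and 7.43% under CC, as a locus that rose 1.39-fold beside one that rose 10.0-fold must.

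*DMAS* and OS03G0237201 were both whole in 0 of 4 *O. sativa* libraries, and their fractions completed each other. The sums of their estimates were 10498 and 13739 under −Fe, and 1440 and 1002 under CC. These sums lay 0 and 0.003 counts from a whole number under −Fe and 0.00486 and 0.0002 counts under CC, within the last printed digit of the tables in all 4 libraries. Of the 7681 genes searched from the side of OS03G0237201, *DMAS* was the 1 gene that completed it in every library. The search from the side of *DMAS* found 2 genes, OS03G0237201 and OS03G0576700, but OS03G0576700 had estimates so large that the tables print only 1 decimal, and it did not complete OS03G0237201.

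OS03G0237201 took 1.06% and 0.935% of the summed reads of the pair under −Fe, against 0.675% and 1.12% under CC. The shares of the treatments overlapped. The reads that belong to OS03G0237201 alone can number at most 111 and 128 under −Fe, against 9 and 11 under CC, and how many of these are its own was not tested. Some reads of OS03G0237201 were divided with *DMAS*. How far its log2 fold change is a measurement separate from that of *DMAS* was not tested. When the reads of both loci were summed before the fit, the log2 fold change of the *DMAS* locus was 3.24 with a standard error of 0.24, and that of *NAAT1* with OS02G0306550 was 3.23 with a standard error of 0.11.

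**Figure D2:**
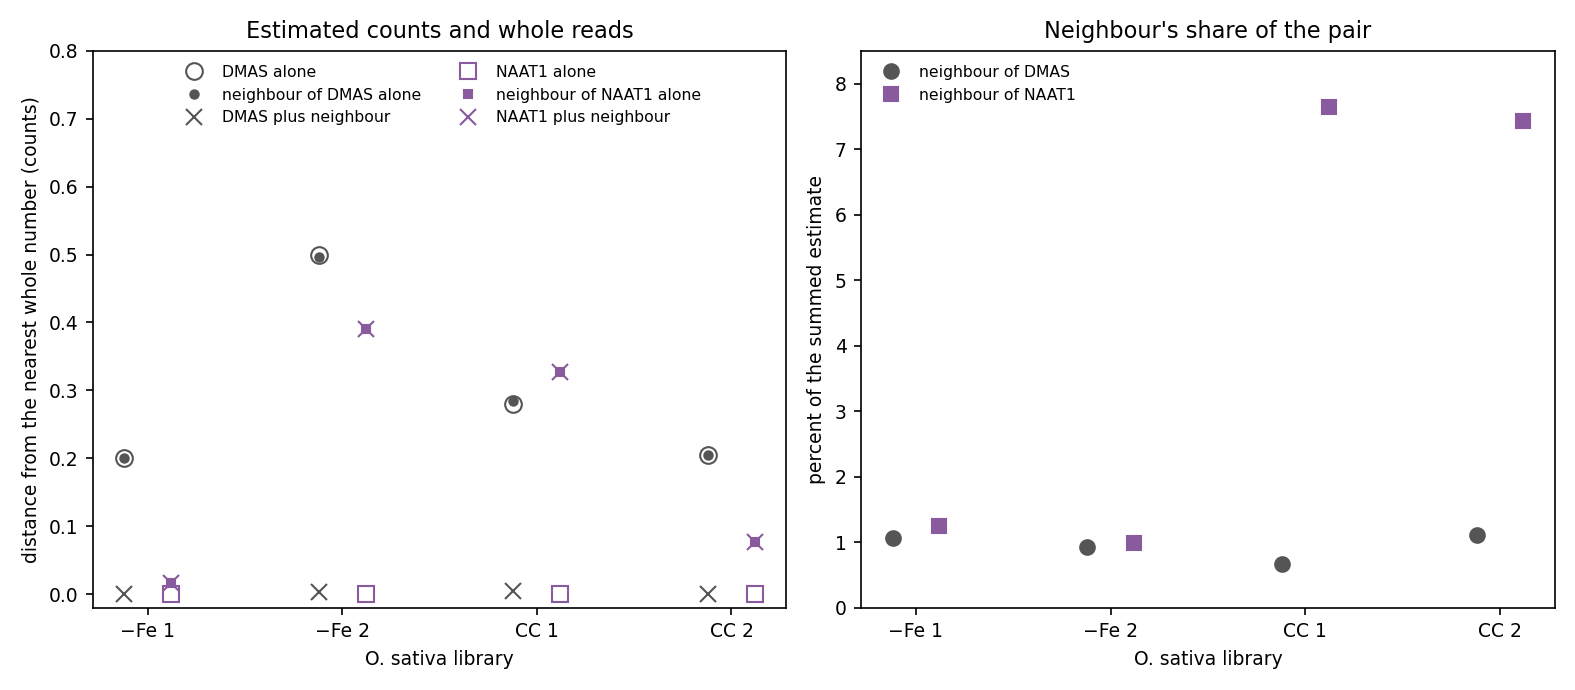
Left: distance of the estimated counts of *DMAS*, *NAAT1*, their neighbours and the sums of each pair from the nearest whole number, for the 4 *O. sativa* libraries. Right: percent of the summed estimate of each pair that went to the neighbour. *DMAS* and its neighbour lie away from 0 alone and at most 0.00486 counts from it when summed, whereas *NAAT1* alone lies at 0 and its neighbour does not. The share of the *NAAT1* neighbour is 1.25% and 0.990% under −Fe and 7.64% and 7.43% under CC.

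Division of reads between neighbouring locus numbers was not particular to the pair of *DMAS* and OS03G0237201. Among the 35667 neighbouring pairs of *O. sativa*, neither gene was whole in any library in 2860. Of these 2860 pairs, 751 (26.3%) summed to whole numbers in all 4 libraries. In *O. rufipogon* 1504 of 37059 pairs had neither gene whole in any library, and 443 of the 1504 (29.5%) summed to whole numbers. Both genes were tested in 713 of the 751 *O. sativa* pairs, and their log2 fold changes had the same sign in 402 of the 713. Both genes passed an FDR of 0.05 in edgeR in 16 of the 713, in the same direction in 15. Of all single genes tested, 6.63% passed. The pair of *DMAS* and OS03G0237201 was 1 of these 16. The positions and strands of the loci and the sequences of their transcripts were not used here, so whether the pair overlaps in the genome or has a similar sequence was not tested.

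In *O. rufipogon*, both orthologs were whole in 4 of 4 libraries, with no sign of divided reads. *NAAT1* had 20924 and 21846 estimated counts under −Fe, against 1011 and 771 under CC. *DMAS* had 5688 and 5339 under −Fe, against 145 and 145 under CC. The treatments were far apart for both genes. The means of *NAAT1* were 1193 ± 53.8 CPM under −Fe and 56.3 ± 16.1 CPM under CC, and those of *DMAS* were 308 ± 37.0 CPM under −Fe and 9.08 ± 0.891 CPM under CC (SD, n = 2 each). The log2 fold changes were 4.41 with a standard error of 0.23 for *NAAT1* (21.2-fold) and 5.09 with a standard error of 0.16 for *DMAS* (34.0-fold).

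All 4 *O. sativa* loci passed a false discovery rate (FDR) of 0.05 in edgeR with higher values under −Fe. Among the 25767 genes tested in that species 6.63% passed, 2.98% higher and 3.66% lower under −Fe. Both *O. rufipogon* genes also passed with higher values, in a comparison where 16.0% of 21081 genes passed, 11.9% higher and 4.15% lower. This count follows from how the loci were chosen. Ordered by log2 fold change, OS03G0237201, *NAAT1* and *DMAS* stood at places 139, 144 and 149 in *O. sativa*, and OS02G0306550 at place 2745. In *O. rufipogon* *DMAS* stood at place 142 and *NAAT1* at place 185.

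Levels can be compared between genes only per length, and in TPM *NAAT1* exceeded *DMAS* in all 8 libraries. The ratio of *NAAT1* to *DMAS* in TPM was 3.48 and 3.00 in *O. sativa* −Fe, against 2.49 and 3.75 in *O. sativa* CC. In *O. rufipogon* it was 2.41 and 2.68 under −Fe, against 4.57 and 3.49 under CC. The ratios of the 2 treatments overlapped in *O. sativa*, with means of 3.24 ± 0.345 under −Fe and 3.12 ± 0.893 under CC. They did not overlap in *O. rufipogon*, with means of 2.55 ± 0.191 under −Fe and 4.03 ± 0.767 under CC (SD, n = 2 each). An exact permutation test of 2 against 2 libraries cannot give a two-sided p below 0.333, so no test of the ratio was made. The annotated *NAAT1* transcript has 1485 nt in both species, while that of *DMAS* has 1284 nt in *O. sativa* and 984 nt in *O. rufipogon*, so levels of *DMAS* are less comparable between the species than its response to Fe.

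The responses of both genes were smaller in *O. sativa* than in *O. rufipogon*. Whether the responses differed was tested in edgeR by the interaction of species and treatment. The test covered the 102 pairs of orthologs that the study lists as regulated in both species. The study drew that list from these same libraries, and *NAAT1* and *DMAS* were chosen with their values known. The intervals and adjusted p values of the interaction do not allow for this choice. For *NAAT1* the log2 difference, *O. sativa* minus *O. rufipogon*, was −1.08 with a standard error of 0.27 and a 95% interval of −1.66 to −0.50 (adjusted p = 0.00832 in edgeR), which makes the *O. rufipogon* response 2.11-fold larger. For *DMAS* it was −1.85 with a standard error of 0.27 and a 95% interval of −2.44 to −1.27 (adjusted p = 0.000254 in edgeR), a 3.61-fold larger response in *O. rufipogon*. The interaction passed the FDR in 36 of the 102 pairs (35.3%), with a negative difference in 23 pairs (22.5%) and a positive one in 13 (12.7%), genes that fell under −Fe included. Among the 57 pairs listed as up-regulated, the rise was smaller in *O. sativa* in 17 and larger in 9, with a median difference of −0.217, against −0.083 over all pairs.

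Under CC both genes had higher levels in *O. sativa* than in *O. rufipogon*, and under −Fe *NAAT1* did. In TPM, *NAAT1* averaged 1480 ± 63.1 in *O. sativa* −Fe and 1054 ± 25.2 in *O. rufipogon* −Fe, and 150 ± 4.09 in *O. sativa* CC and 54.7 ± 16.4 in *O. rufipogon* CC. *DMAS* averaged 461 ± 68.6 in *O. sativa* −Fe and 415 ± 41.1 in *O. rufipogon* −Fe, and 49.9 ± 13.0 in *O. sativa* CC and 13.4 ± 1.50 in *O. rufipogon* CC (SD, n = 2 each). The −Fe libraries of the species overlapped for *DMAS*, and the CC libraries did not overlap for either gene. Each species was quantified on its own set of transcripts, so these levels were not tested against each other.

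Of the 17 other genes listed for the pathway in *O. sativa*, 16 had enough counts to be tested, and 15 of them rose under −Fe, 0 fell and 1 did not pass the FDR of 0.05 in edgeR. Over all 25767 genes tested, 2.98% rose and 3.66% fell at this FDR. The median log2 fold change of the 16 genes was 2.82, against −0.005 over all genes tested. Most of these genes are known for their response to Fe and were taken from the study or from knowledge of the pathway, so the count is not independent evidence of a direction. The gene not tested was *SAM3*, with 3 to 9 estimated counts per library.

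Upstream of *NAAT1*, *SAM2* encodes an S-adenosylmethionine synthase and rose under −Fe with a log2 fold change of 1.38 (SE 0.10, adjusted p = 5.81e-05 in edgeR). *SAM1*, of the same family, had 2927 and 3283 CPM under −Fe and 3533 and 3485 CPM under CC, a log2 fold change of −0.18 (adjusted p = 0.456 in edgeR). The nicotianamine synthase genes *NAS1* and *NAS2* rose by log2 values of 3.44 (SE 0.16, adjusted p = 1.03e-05) and 3.50 (SE 0.16, adjusted p = 6.60e-06 in edgeR), close to the values of *NAAT1* and *DMAS*. *NAS3* rose less, by 1.13 (SE 0.10, adjusted p = 0.000295 in edgeR).

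The methionine salvage cycle returns the by-product of nicotianamine synthesis to S-adenosylmethionine. Its 6 listed genes, *MTN*, *MTK1*, *IDI2*, *DEP*, *ARD2* and an aminotransferase gene (OS09G0453800), all rose, with log2 fold changes between 2.17 for *MTN* and 3.32 for *DEP*. *TOM1*, for the efflux of deoxymugineic acid, rose by 3.45 (SE 0.18, adjusted p = 6.66e-05 in edgeR), and *ENA1*, for the efflux of nicotianamine, the substrate of NAAT, rose by 1.66 (SE 0.08, adjusted p = 4.36e-06 in edgeR). *YSL15*, for the uptake of the Fe(III) complex, rose by 2.99 (SE 0.10, adjusted p = 6.21e-07 in edgeR). The bHLH transcription factor genes *IRO2*, a positive regulator of this pathway, and *IRO3*, a negative one, rose by 3.43 (SE 0.12, adjusted p = 1.13e-06) and 3.16 (SE 0.10, adjusted p = 4.85e-07 in edgeR). *IRO3* lost its call when its most abundant transcript was tested among all transcripts (adjusted p = 0.0712 in edgeR).

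Divided reads were also found among these pathway genes. Of the 17 genes, 9 had an estimate that was not whole in at least 1 library, and 5 of the 9 were completed to whole numbers in all 4 libraries by the locus next to them. *NAS1* and *NAS2* completed each other, with 48.6% to 49.8% of the reads of the pair assigned to *NAS1*. *IRO2* was completed by OS01G0952900, which took 0.929% to 1.48% of the pair and had a log2 fold change of 3.50, so this pair had the same form as *DMAS* and OS03G0237201. *MTK1* was completed by OS04G0669900, with 14.7% to 22.0% of the pair, and *SAM2* by OS01G0323775, with 72.3% to 77.1%. The values of *NAS1*, *NAS2*, *MTK1* and *SAM2* are uncertain by the way these reads were divided. *TOM1*, whole in 0 of 4 libraries, and *YSL15*, whole in 1 of 4, were not completed in all 4 libraries by a locus next to them. Genes further away were not searched for these, so how far division of reads affects their values was not tested.

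In *O. rufipogon* 11 of the 17 genes had a listed ortholog, and 11 of 11 rose under −Fe at an FDR of 0.05. Of all 21081 genes tested there, 11.9% rose and 4.15% fell. The 11 orthologs come from the study's list of genes up-regulated in both species, so this count follows from how they were chosen. Their median log2 fold change was 3.19, against 0.008 over all genes tested. Of these 11, the species by treatment interaction passed the FDR for *NAS1*, *SAM2*, *ENA1* and *YSL15*, with a smaller response in *O. sativa* as for *NAAT1* and *DMAS*, and for *MTN* and *IRO3*, with a larger one. The call of *MTN* was lost without *O. sativa* −Fe replicate 2, *O. sativa* CC replicate 1 or *O. rufipogon* −Fe replicate 2 (adjusted p = 0.0546 to 0.0701 in edgeR). For *YSL15* the difference was −1.17 (SE 0.20, adjusted p = 0.000910 in edgeR), near that of *NAAT1*. *IRO2* showed a difference of 0.05 with a 95% interval of −0.39 to 0.48 (adjusted p = 0.894 in edgeR). *MTK1*, *DEP*, *ARD2* and the aminotransferase gene did not pass either, with differences between −0.56 and 0.25.

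**Figure D3:**
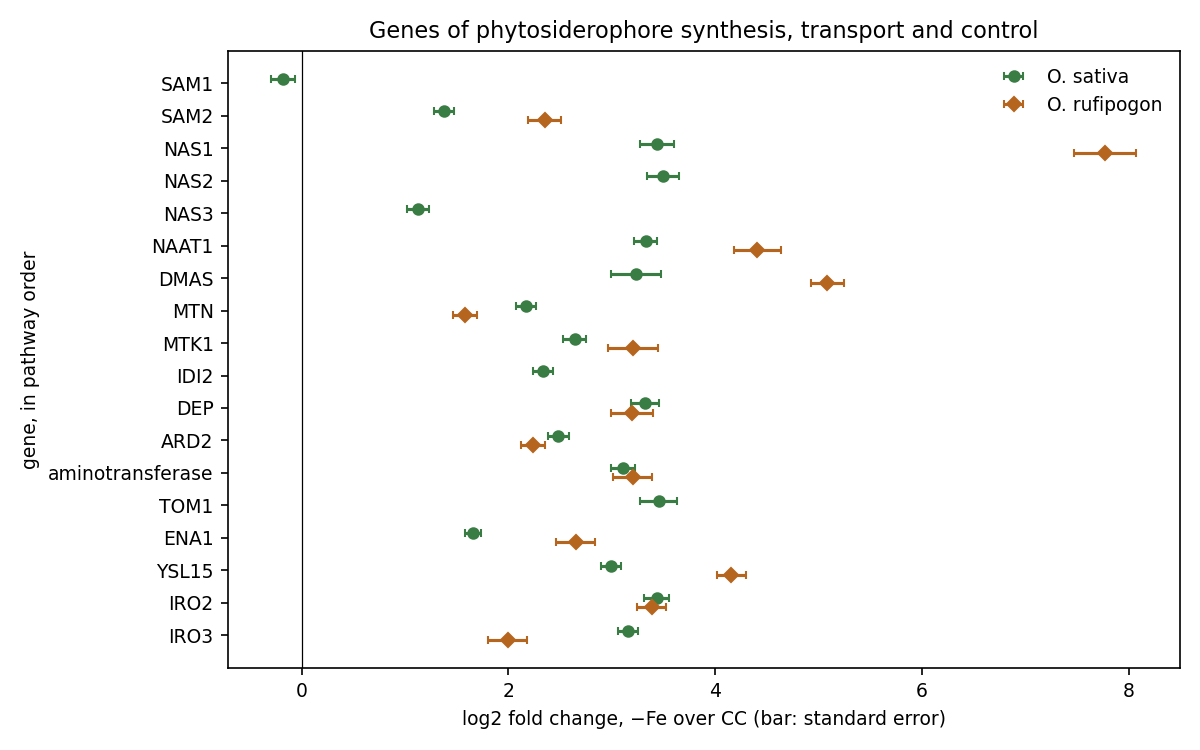
Log2 fold change of −Fe over CC for *NAAT1*, *DMAS* and the tested genes of phytosiderophore synthesis, transport and control, from the edgeR fit of each species (circles *O. sativa*, diamonds *O. rufipogon*; bars are standard errors). *NAAT1* is at 3.33 and *DMAS* at 3.23 in *O. sativa*, and at 4.41 and 5.09 in *O. rufipogon*, while *SAM1* lies at −0.18.

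The loci around *NAAT1* and *DMAS* were tested in the same fits, in which 2.98% of all *O. sativa* genes were called higher and 3.66% lower under −Fe, so a set of this size would hold few calls in any case. Within 10 locus numbers on each side of *NAAT1* in *O. sativa*, leaving out the gene and OS02G0306550, there were 19 loci, of which 14 were tested, 0 rose and 1 fell at an FDR of 0.05, with a median log2 fold change of −0.07. The locus that fell was OS02G0305700, by 0.37 on the log2 scale (adjusted p = 0.0432 in edgeR), and this call was lost when any of the 4 libraries was left out (adjusted p = 0.0830 to 0.312) and with DESeq2, median-ratio size factors, limma on TPM, the most abundant transcript and the replicate block (adjusted p = 0.0523 to 0.290). OS02G0305950 had 0.329 and 0.244 CPM under −Fe and 0 under CC and did not pass in edgeR (adjusted p = 0.0760) or DESeq2. It was the 1 locus higher under −Fe at an unadjusted p under 0.05 in edgeR, and it passed the FDR in limma on TPM with either pseudocount, 1 or 0.1.

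Around *DMAS* in *O. sativa*, 12 of 19 loci were tested and 0 passed the FDR in edgeR, DESeq2 or limma on log2 of TPM, with log2 fold changes between −0.55 and 0.05. At an unadjusted p under 0.05 in edgeR, 0 were higher and 3 were lower under −Fe. The locus before *DMAS*, OS03G0237000, was of similar abundance, with 393 and 419 CPM under −Fe and 417 and 445 CPM under CC, and its treatments overlapped. In *O. rufipogon*, where 11.9% of all genes were called higher and 4.15% lower, 1 of 12 tested loci fell around each gene and 0 rose in edgeR and in DESeq2. The loci that fell were ORUFI02G13800, the locus before *NAAT1*, by 1.47 on the log2 scale (adjusted p = 0.0171 in edgeR), and ORUFI03G10060, by 0.66 (adjusted p = 0.0165 in edgeR). Both calls were lost without −Fe replicate 1 (adjusted p = 0.190 and 0.215) and without −Fe replicate 2 (adjusted p = 0.149 and 0.232), and with the most abundant transcript (adjusted p = 0.0800 and 0.0562). At an unadjusted p under 0.05 in edgeR, 0 loci were higher and 3 lower around *NAAT1*, and 2 were higher and 2 lower around *DMAS*. Limma on TPM called 3 loci lower around *NAAT1* with either pseudocount and 1 lower around *DMAS*, and with a pseudocount of 1 it called ORUFI03G10010 higher.

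**Figure D4:**
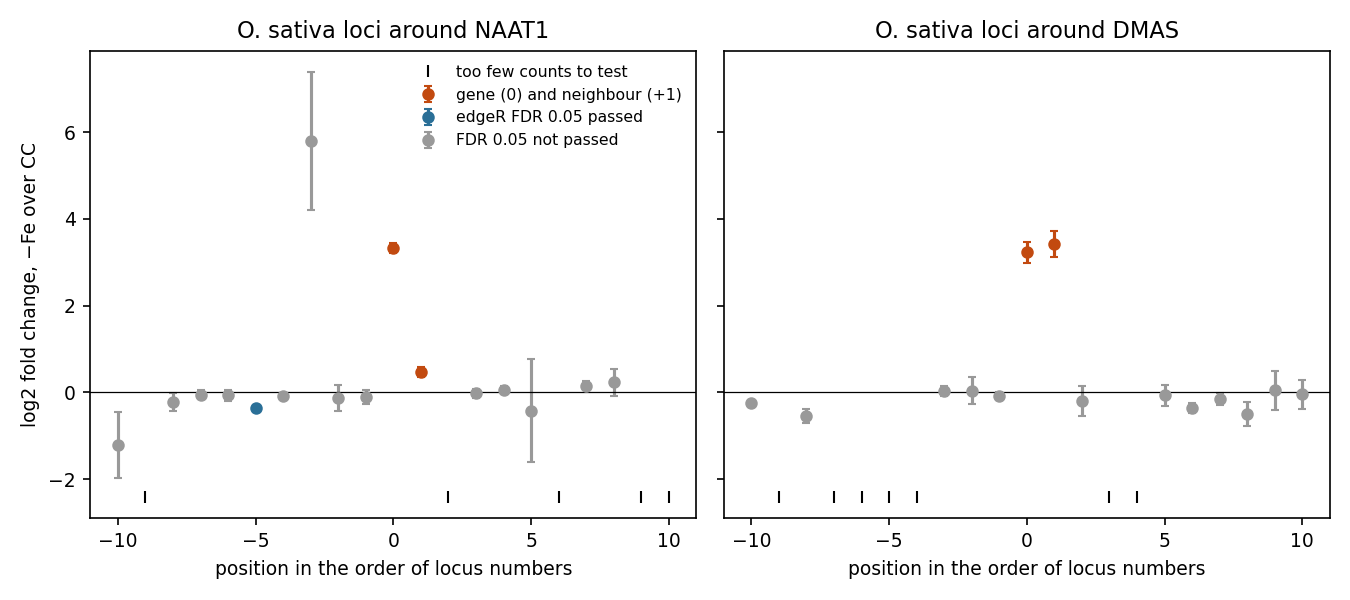
Log2 fold change of −Fe over CC (points; bars are standard errors) for the *O. sativa* loci within 10 locus numbers of *NAAT1* (left) and *DMAS* (right), in the order of the locus numbers. *NAAT1* at 3.33, *DMAS* at 3.23 and the neighbour of *DMAS* at 3.42 stand above the other tested loci of their regions, except OS02G0305950 at 5.80, a fitted value against 0 reads under CC that is no bound, from at most 0.329 CPM under −Fe. Ticks near the lower edge mark loci with too few counts to test.

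The genes whose profile over the 4 *O. sativa* libraries was most like that of *NAAT1* were OS05G0554000, OS02G0731900, OS11G0173550, *DEP* and OS11G0134950, with Euclidean distances of 0.095 to 0.134 between centred log2(CPM + 0.5) values among 21435 genes. *DEP*, the salvage gene for a dehydratase-phosphatase, was the 1 pathway gene among the 5. The 5 genes nearest to *DMAS* were OS08G0557200, OS03G0226200, OS01G0871500, OS07G0495150 and *OPT7*, a gene of the oligopeptide transporter family, at distances of 0.210 to 0.431. Some of these genes were near the floor under CC: OS08G0557200 at 0.257 and 0.0866 CPM, OS07G0495150 at 0.429 and 0.217, and OS11G0134950 at 0.386 and 0.476. The 0.5 CPM added before the log therefore enters their distances. Their fitted log2 fold changes were 4.96, 4.39 and 4.47. None of the 5 nearest genes was shared between *NAAT1* and *DMAS*, and the larger spread between the pools of *DMAS* enters these distances.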

How the data were processed

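The authors discarded reads with a PHRED value below 30, used Trim Galore against adapters, cut 12 nt from the start of the 50 nt reads and quantified transcripts with Kallisto. Estimated counts, TPM, length and effective length per transcript were deposited by the authors, 1 table per library, and all columns belonged to the libraries described (0 columns of other samples). The labels name the build IRGSP-1.0, and the Kallisto version is not given in the sources used here. Length exceeded effective length by 31 nt for every transcript.

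Libraries were grouped by species and treatment from their titles. Estimated counts were summed per gene and rounded, genes were kept that reached 5 counts in 2 or more of the 4 libraries, and −Fe was tested against CC with the robust quasi-likelihood test of edgeR 4.0.16 (R 4.3.3, TMM, Benjamini-Hochberg, FDR 0.05), in each species alone. Standard errors are the log2 fold change divided by the square root of F. The interaction used all 8 libraries with library sizes of the full tables. An estimate was called whole within 0.01 of a whole number, and a sum within the rounding of its printed digits. Tests were checked on simulated data. The alternatives were DESeq2 1.42.0, median-ratio size factors, other filters, limma 3.58.1 on log2 of TPM + 1 and TPM + 0.1 or on log2 CPM, summed neighbouring loci, the most abundant transcript, a replicate block and leaving out each library. Same-numbered libraries had deviations with a correlation of −0.118 (*O. sativa*) and 0.0639 (*O. rufipogon*), so no pairing was assumed, and no source pairs them.

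Named genes are the 6 genes, the pathway list, flanking loci past the FDR, genes that complete the estimate of 1 of the 6, and the 5 genes nearest to *NAAT1* and to *DMAS* with a mean of at least 1 CPM. OS03G0237000, OS02G0305950, the *O. rufipogon* flanking loci, the loci that complete pathway genes and the tissue markers were added after their values were seen. The genes and lists were chosen with earlier results of these data known. Shared 31-mers, positions, promoter motifs and sequences were not analysed here, since no genome of this build was used.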

Additional observations from a re-analysis of the deposited data

Results flagged for a closer look

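In 8 of the 13 ortholog pairs of the pathway named here, and in 35.3% of all 102 pairs, the response to −Fe differed between the species by the interaction test of edgeR, given as the log2 response of *O. sativa* minus that of *O. rufipogon* with p adjusted over those pairs and n = 2 libraries per group. The adjusted p values do not allow for the choice of these pairs from the same libraries. *NAAT1* (−1.08, adjusted p = 0.00832), *DMAS* (−1.85, adjusted p = 0.000254), *SAM2* (−0.97, adjusted p = 0.00578), *ENA1* (−0.998, adjusted p = 0.00134) and *YSL15* (−1.17, adjusted p = 0.000910) responded less in *O. sativa*. *NAS1* had the largest difference of the 8, at −4.34 (adjusted p = 1.44e-06). It divided reads with *NAS2* in *O. sativa*, and its *O. rufipogon* ortholog had 1062 and 786 CPM under −Fe and 5.23 and 3.26 CPM under CC. *IRO3* (1.17, adjusted p = 0.00117) and *MTN* (0.59, adjusted p = 0.0195) responded more in *O. sativa*, but the call of *MTN* was lost on leaving out 3 of the 8 libraries (adjusted p = 0.0546 to 0.0701 in edgeR).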

How the results depend on the processing

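With 2 pools per group, single libraries set the counts of calls. Leaving out each library in turn gave 608 to 1082 genes past the FDR in *O. sativa* (1709 with all) and 223 to 9592 in *O. rufipogon* (3378 with all), the extremes being without *O. rufipogon* −Fe replicate 1 and without CC replicate 1, and 22 to 40 interaction pairs (36 with all), while 15 pathway genes were called each time. The lone library was assumed to vary like the other group. In these fits the log2 fold change stayed between 3.26 and 3.43 for *NAAT1*, 0.40 and 0.57 for OS02G0306550, 3.00 and 3.51 for *DMAS* and 3.33 and 3.53 for OS03G0237201 in *O. sativa*, and between 4.13 and 4.70 for *NAAT1* and 4.96 and 5.20 for *DMAS* in *O. rufipogon*. The interaction lay between −1.40 and −0.81 for *NAAT1* (adjusted p up to 0.0484 in edgeR) and between −2.09 and −1.57 for *DMAS* (adjusted p up to 0.00289). The interaction of *MTN* lost its call without *O. sativa* CC replicate 1, without *O. sativa* −Fe replicate 2 and without *O. rufipogon* −Fe replicate 2 (adjusted p = 0.0546 to 0.0701), that of *MTK1* passed without *O. rufipogon* CC replicate 1 (−0.95, adjusted p = 0.00456), and *IRO3* of *O. rufipogon* missed it without −Fe replicate 1 (adjusted p = 0.0506). On log2 of TPM + 1 the value of OS03G0237201 was 2.01 and that of *O. rufipogon* *DMAS* 4.85, and on log2 of TPM + 0.1 that of OS03G0237201 was 3.16 and that of *O. rufipogon* *DMAS* 4.94. The causes were not tested. On the TPM + 0.1 scale the median of all genes was −0.112 in *O. rufipogon*, against 0.008 with TMM. With a tolerance of 0.001 the sum of *DMAS* and OS03G0237201 was whole in 2 libraries in place of 4, a tolerance finer than the printed digits. In *O. rufipogon* 2504 genes were called higher and 874 lower under −Fe, against 2339 and 1323 with DESeq2, 2521 and 1546 on log2 of TPM + 1, and 2289 and 1391 on log2 of TPM + 0.1. The replicate block gave 1717 genes in *O. sativa*, 3489 in *O. rufipogon* and 29 interaction pairs, and the crossed pairing of *O. sativa*, chosen after seeing the data, 2036 genes. The block changed no call of the pathway genes, and of the flanking loci it ended that of OS02G0305700 (adjusted p = 0.0523). The direction changed only for interactions that passed the FDR in no setting, on leaving out single libraries. These were *IRO2* (−0.097 to 0.208, negative without *O. sativa* CC replicate 1 or *O. rufipogon* CC replicate 2), *DEP* (−0.120 to 0.343, negative without *O. rufipogon* CC replicate 1) and the aminotransferase gene (−0.284 to 0.0804, positive without *O. rufipogon* CC replicate 2 or −Fe replicate 1).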
